A study of Mus musculus with 24 samples.

Results

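The comparison described here is streptozotocin diabetes against control in gastrocnemius muscle of Notch2-mKO mice, a line in which Cre is meant to delete Notch2 in muscle fibres. It rests on 8 RNA sequencing libraries of the 24 in the series, 4 from diabetic and 4 from control Notch2-mKO muscle, chosen by their sample titles and by the matching columns of the count table. Diabetic mice of this genotype (Mlc1fCre/+;Notch2f/f, strain C57BL/6) were sampled 14 days after 1 intraperitoneal injection of streptozotocin at 150 mg per kg, and the control mice carried the same alleles. Cre in this line is driven by a myosin light chain 1f knock-in, which acts in fast skeletal muscle fibres, so satellite cells, vessels, fibroblasts and nerve in the whole muscle keep their own Notch2. The other 4 groups of 4 libraries each were Notch2-mKO muscle after 7 days of hindlimb unloading, and diabetic, unloaded and control muscle of WT mice (Notch2f/f without Cre). The labels used here give neither age nor sex, and do not say whether the 4 libraries of a group came from 4 separate animals. P-values therefore measure the spread between libraries, which for single genes was estimated over all 24.

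Streptozotocin destroys the insulin-secreting beta cells of the pancreas, so the muscle of treated animals is deprived of insulin. Low insulin lets FOXO transcription factors enter the nucleus, where they switch on ubiquitin ligases such as Fbxo32 (atrogin-1) and Trim63 (MuRF1) and autophagy genes, and it raises circulating fatty acids, which activate the PPAR receptors that control fatty acid transport and oxidation. Glucocorticoids rise in the same state and act on an overlapping set of genes. Notch2 is a receptor that is cut on contact with a ligand on a neighbouring cell and then works as a transcriptional activator, and the study asked whether its absence from fibres changes how muscle responds to wasting conditions.

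Levels are given in CPM. This is the deposited estimated count of a gene, rounded, per 1000000 counts of its library after scaling by the trimmed mean of M values. The 8 libraries held 40439670 to 49207582 estimated counts and detected 14226 to 14588 gene models. Differences between groups are log2 fold changes, diabetes over control, from edgeR's quasi-likelihood test over all 24 libraries, with their standard error (SE); a gene is called, and is said to have risen or fallen, when its Benjamini-Hochberg adjusted p over all 13048 genes tested is under 0.05. Notch2 itself had 1.697, 2.16, 1.15 and 2.12 CPM in the diabetic libraries and 2.12, 1.25, 1.55 and 2.55 CPM in the control libraries (log2 fold change -0.067, adjusted p = 0.902). It averaged 2.28 ± 0.631 CPM in diabetic WT and 1.84 ± 0.06798 CPM in control WT libraries (SD, n = 4 each), so no loss of Notch2 was visible in the Notch2-mKO totals. The count takes in all exons and all cells of the tissue, and so it is no check of the genotype.

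Library properties other than single genes were compared as well; the base composition measure did not pass its test, and no marker list passed after adjustment. The level of AT-rich genes (under 42% GC) relative to GC-rich genes (over 56% GC) was 0.111 ± 0.130 on the log2 scale in diabetic libraries and -0.264 ± 0.228 in control libraries (SD, n = 4 each; exact two-sided permutation p = 0.0857, where 0.0286 is the smallest that 4 against 4 allows). Counts are therefore also given after this trend with GC content and gene length was removed. Among 11 lists of cell type markers, the adipocyte list had the smallest p for its summed level, at 2102 to 2720 CPM in diabetic libraries against 1362 to 1753 CPM in control libraries (exact permutation p = 0.0286; 0.210 after adjustment over the 11 lists). Most of that sum was Car3, which muscle fibres also express. The muscle fibre list was lower on average in diabetic libraries by 0.15 on the log2 scale (exact permutation p = 0.0571, adjusted 0.210). Its 12 genes summed to 258400 to 298200 CPM in diabetic libraries and 285400 to 322000 CPM in control libraries, as skeletal muscle has. In whole muscle, fewer cells of a type and less RNA per cell cannot be told apart.

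In diabetic Notch2-mKO muscle 398 genes rose, 3.05% of those tested, and 332 fell, 2.54%. Counts of called list members below are to be set beside these shares. Together the rises and falls were 730 genes, 5.59%. The levels of 671 of them did not overlap between the 4 diabetic and the 4 control libraries, which their choice by the same values largely fixes; of all tested genes 17.8% did not overlap. After removal of the trend with GC content and length, 293 genes rose (2.25%) and 284 fell (2.18%), 4.42% in all. With and without that step 453 genes were called, all in the same direction. Limma on the authors' log2 values called 259 genes higher and 93 lower, while upper quartile scaling gave 323 higher and 388 lower, and a fit to these 2 groups alone 784 and 808, so the balance of rises and falls depended on the method. How many genes passed depended on single libraries. With diabetic library 1, 2, 3 or 4 left out, 168, 151, 191 and 100 genes rose and 178, 106, 119 and 78 fell. With control library 1, 2, 3 or 4 left out, 633, 121, 154 and 77 rose and 362, 154, 166 and 76 fell. A core of 116 genes, 60 that rose and 56 that fell, was called with all libraries and in each of the 8 reduced fits.

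**Figure D1:**
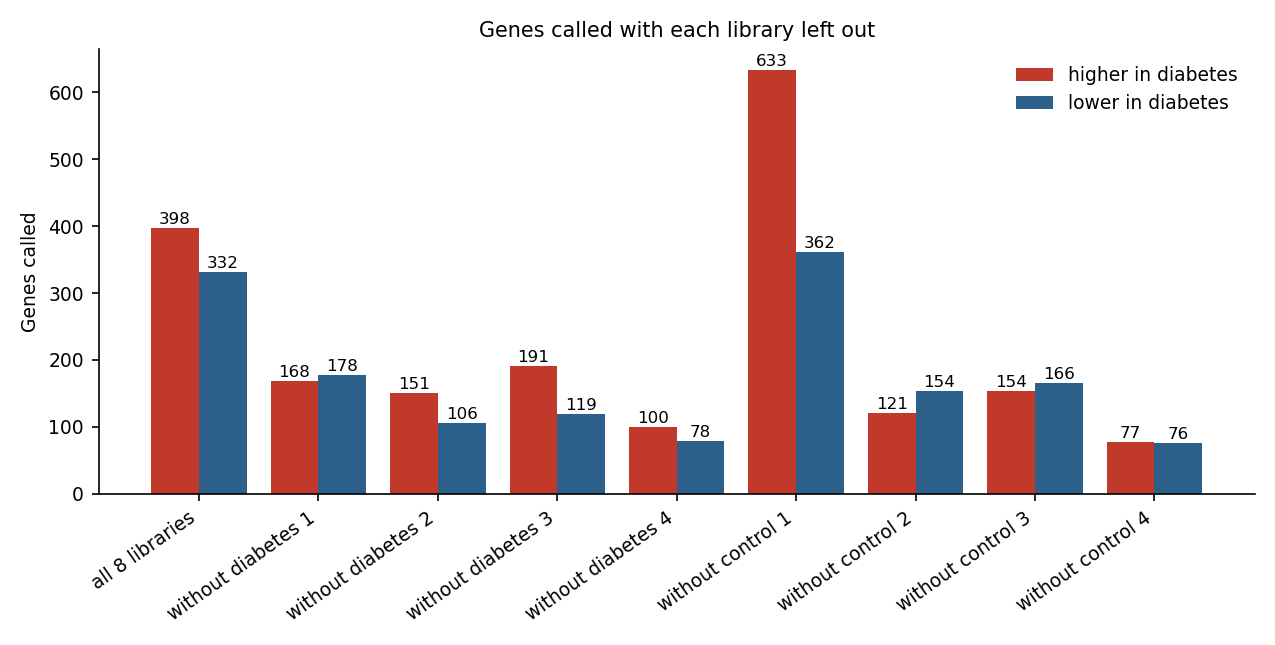
Number of genes called higher (red) or lower (blue) in diabetic than in control Notch2-mKO muscle, with all 8 libraries and with each library left out in turn. Counts rose above the full set of 398 and 332 only without control library 1 (633 and 362), and were smallest without control library 4 (77 and 76).

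The genes that rose most, picked from calls whose groups did not overlap and whose 8-library mean reached 2 CPM, were led by Acot1. Acot2, its neighbour on chromosome 12, was also among the 12 largest rises. They encode acyl-CoA thioesterases, which split fatty acyl-CoA into free fatty acid and coenzyme A, Acot1 in the cytosol and Acot2 in mitochondria. Acot1 (gene at chr12:84009502-84017670, GRCm38) had 13.4, 16.8, 10.4 and 8.42 CPM in diabetic libraries, against 0.823, 1.64, 1.33 and 0.501 CPM in control libraries. All diabetic libraries stood above all control libraries, and the estimated rise was 11.4-fold (log2 fold change 3.51, SE 0.483, adjusted p = 0.00043). Acot2 (chr12:83987861-83993877) had 16.4, 11.8, 7.04 and 8 CPM in diabetic libraries and 2.21, 2.296, 3.15 and 2.23 CPM in control libraries, again without overlap (log2 fold change 2.13, SE 0.326, adjusted p = 0.00113). Both stayed called in all 8 reduced fits; the 2 genes are close paralogs, and reads shared between them could have been split in the counting. Their promoter windows, 250 bases before to 50 bases after the annotated start on the plus strand (RefSeq, GRCm38.p6), are shown because both genes rose.
Acot1, chr12:84009252-84009551: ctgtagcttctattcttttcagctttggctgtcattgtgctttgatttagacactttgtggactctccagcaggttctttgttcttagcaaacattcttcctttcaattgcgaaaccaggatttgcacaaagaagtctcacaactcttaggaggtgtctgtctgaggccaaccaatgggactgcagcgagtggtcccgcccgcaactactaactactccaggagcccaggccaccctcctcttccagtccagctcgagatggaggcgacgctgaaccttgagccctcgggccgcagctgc
Acot2, chr12:83987611-83987910: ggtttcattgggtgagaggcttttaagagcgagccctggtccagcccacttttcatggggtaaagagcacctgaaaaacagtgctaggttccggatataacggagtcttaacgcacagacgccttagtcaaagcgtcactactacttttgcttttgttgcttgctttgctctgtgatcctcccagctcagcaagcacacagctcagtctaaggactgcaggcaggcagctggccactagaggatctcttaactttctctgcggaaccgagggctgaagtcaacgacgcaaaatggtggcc

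Neither window held any of 3 motifs searched on both strands: the FOXO motif GTAAACA, the PPAR direct repeat AGGTCANAGGTCA, or a glucocorticoid receptor pair GNACANNNTGTNC. The same was true of the other 14 promoters found among the 24 largest changes. Across all 27025 promoter windows in the RefSeq table, 3.55% held the FOXO motif, 0.0444% the PPAR repeat and 0.463% the glucocorticoid receptor pair. Of 320 windows of genes that rose, 14 (4.38%) held the FOXO motif, and of 256 windows of genes that fell 5 (1.95%) did, against 2.44% of the 10363 windows of tested genes. These are descriptions of short windows, not evidence of binding.

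The other large rises covered several unrelated functions. Chrna2, an alpha subunit of the nicotinic acetylcholine receptor, had 4.81, 5.41, 4.96 and 3.91 CPM in diabetic libraries and 0.26, 1.09, 1.599 and 0.2003 CPM in control libraries (log2 fold change 2.60, SE 0.543, adjusted p = 0.00944). Rab15, a small GTPase of endosome recycling, had 11.9, 13.8, 11.5 and 6.55 CPM against 2.77, 2.95, 3.75 and 2.804 CPM in controls (log2 fold change 1.83, SE 0.342, adjusted p = 0.00534). Tgtp1, an interferon-inducible GTPase, had 6.92, 5.37, 4.83 and 4.87 CPM against 1.78, 0.612, 0.824 and 2.13 CPM in controls (log2 fold change 2.04, SE 0.419, adjusted p = 0.00898). These genes did not overlap between groups and kept their calls in all 8 reduced fits, although Tgtp1 has a near-identical neighbour, Tgtp2, with which reads may be shared.

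Sox4, an HMG-box transcription factor, was uneven among the diabetic libraries, at 4.29, 6.02, 14.3 and 27.6 CPM, against 1.89, 3.59, 1.09 and 3.06 CPM in control libraries (log2 fold change 2.43, SE 0.522, adjusted p = 0.0112). Diabetic libraries 3 and 4 were far above the other 2, and the call was lost without diabetic library 4 (adjusted p = 0.0666). Stc2, which encodes the secreted glycoprotein stanniocalcin 2, had 3.502, 5.19, 1.69 and 7.04 CPM in diabetic and 1.62, 0.984, 0.412 and 0.977 CPM in control libraries (log2 fold change 2.11, SE 0.477, adjusted p = 0.0143). Stc2 lost its call without diabetic library 4 or control library 4 (adjusted p from 0.0532 to 0.0641). Myh3, the embryonic myosin heavy chain, had 6.26, 11, 10.7 and 3.81 CPM in diabetic and 3.27, 3.21, 2.42 and 2.25 CPM in control libraries (log2 fold change 1.51, SE 0.406, adjusted p = 0.0326). The lowest diabetic library lay just above the highest control library, and the call was lost without diabetic libraries 2 or 3 or control libraries 2, 3 or 4 (adjusted p from 0.0619 to 0.105).

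**Figure D2:**
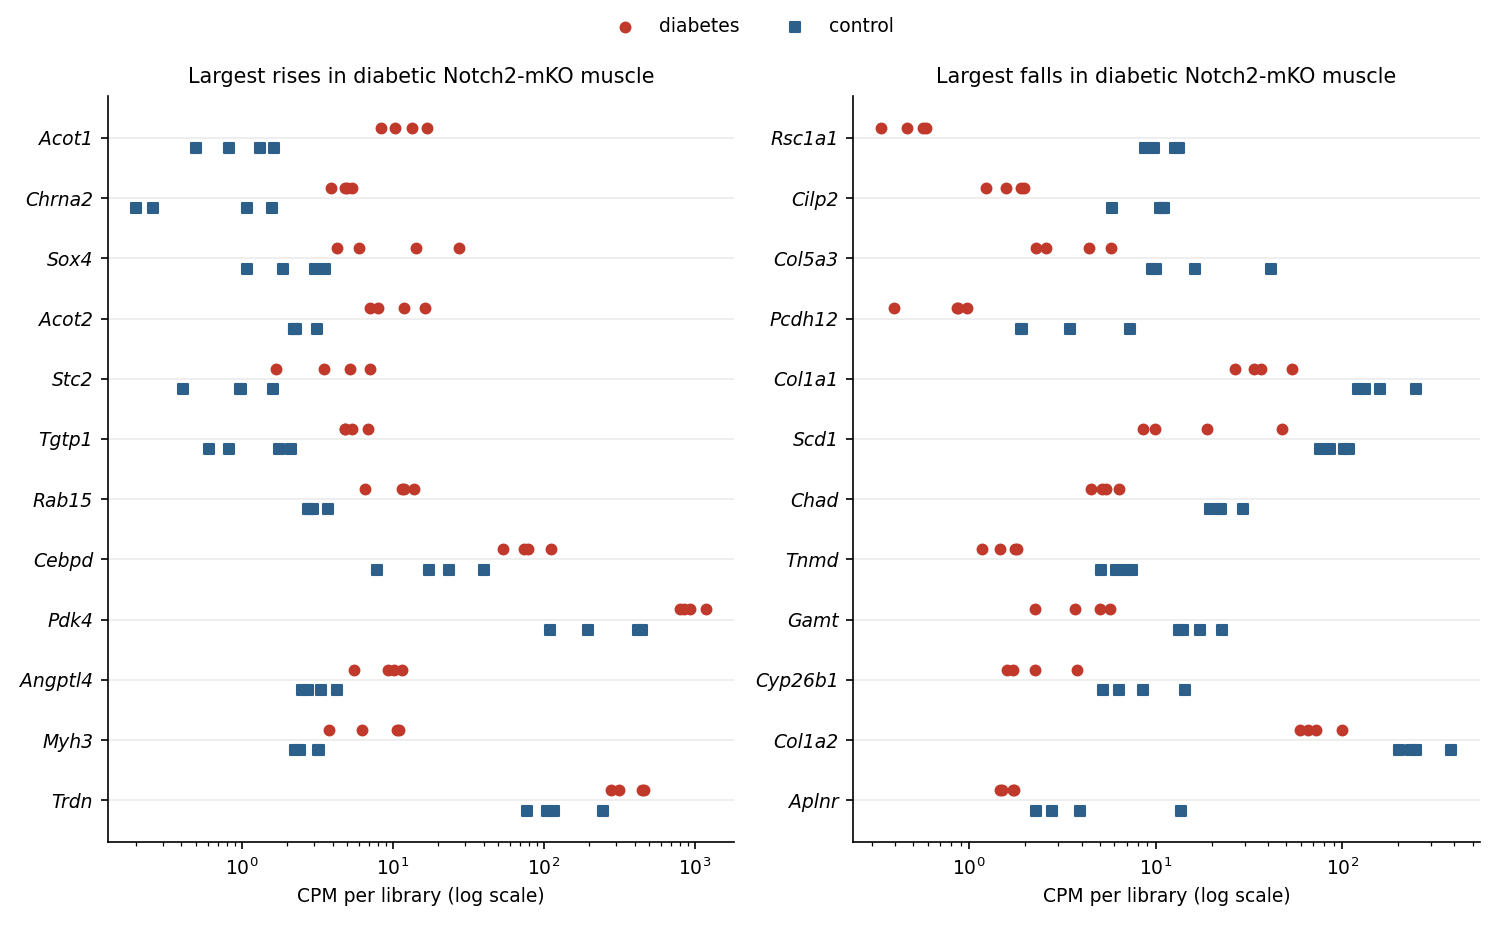
CPM on a log scale in each of the 4 diabetic (red circles) and 4 control (blue squares) Notch2-mKO libraries, for the 12 genes that rose most (left) and the 12 that fell most (right), ordered by log2 fold change. By the rule of choice no gene overlaps between groups; the gap is widest for Rsc1a1 among falls and for Acot1 among rises.

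The falls were led by Rsc1a1, which had 0.587, 0.464, 0.338 and 0.566 CPM in diabetic libraries and 12.6, 13.4, 8.77 and 9.81 CPM in control libraries (log2 fold change -4.51, SE 1.04, adjusted p = 0.0154). Its annotated exon lies inside the transcribed region of Ddi2, so its reads may belong to either gene. The call was lost without diabetic libraries 2 or 4 (adjusted p from 0.0507 to 0.0545). The remaining falls were mostly genes of collagenous tissue, described further on. Outside that group, Pcdh12, an endothelial protocadherin, averaged 0.772 ± 0.257 CPM in diabetic and 3.63 ± 2.51 CPM in control libraries (SD, n = 4 each; log2 fold change -2.22, SE 0.486, adjusted p = 0.0122), and was lost without diabetic library 4 or control library 4 (adjusted p from 0.054 to 0.0759). Aplnr, the apelin receptor of vascular endothelium, had 1.72, 1.74, 1.47 and 1.502 CPM in diabetic and 3.92, 2.27, 2.76 and 13.6 CPM in control libraries (log2 fold change -1.81, SE 0.428, adjusted p = 0.0178). Control library 4 was the high one, and without it the log2 fold change was -0.89 (adjusted p = 0.145); the call was also lost without diabetic library 3 or 4. Cyp26b1, an enzyme that degrades retinoic acid, had 1.72, 2.26, 3.79 and 1.6 CPM in diabetic and 6.39, 8.595, 5.23 and 14.4 CPM in control libraries (log2 fold change -1.88, SE 0.469, adjusted p = 0.0237). It was lost without diabetic libraries 1, 2 or 4 or control library 4 (adjusted p from 0.0601 to 0.0995).

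Many genes of fatty acid uptake and oxidation rose. Of 47 genes on this list, 17 rose, none fell and 30 were not called, against 3.05% of all genes that rose, and the median log2 fold change was 0.38 against -0.0064 over all genes tested. With the trend in GC content and length removed the count was again 17, but not of the same genes, since Cd36 and Hadhb lost their calls. The count was 8 without control library 4, 9 without diabetic library 2, 10 without diabetic library 1, and 11 without control library 2 or diabetic library 4; the other 3 reduced fits gave 12 to 14. Fabp3, the fatty acid carrier of muscle cytosol, had 811, 749, 657 and 538 CPM in diabetic and 279, 338, 357 and 323 CPM in control libraries (log2 fold change 1.09, SE 0.143, adjusted p = 0.000388). Ech1, an isomerase for unsaturated fatty acids in mitochondria and peroxisomes, had 305, 301, 305 and 269 CPM in diabetic and 168, 203, 177 and 159.9 CPM in control libraries (log2 fold change 0.74, SE 0.0938, adjusted p = 0.000388). Neither gene overlapped between groups, and these were the 2 smallest adjusted p-values on the list.

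Steps from uptake to beta-oxidation were represented among the rises. At the membrane, Slc27a1, a fatty acid transport protein, had 122, 147, 119 and 109 CPM in diabetic and 76.2, 82.6, 63.6 and 63.4 CPM in control libraries (log2 fold change 0.80, SE 0.136, adjusted p = 0.00322). Cd36, the fatty acid translocase, had 219.8, 214, 174 and 162 CPM in diabetic and 138, 98.1, 104 and 108 CPM in control libraries (log2 fold change 0.78, SE 0.183, adjusted p = 0.0166). It lost its call without diabetic libraries 1 or 2 or control libraries 2 or 4 (adjusted p from 0.0505 to 0.0595), and also once the GC and length trend was taken out (adjusted p = 0.0845). Acadl, the long-chain acyl-CoA dehydrogenase, had 296, 308, 284 and 229.8 CPM in diabetic and 139, 155, 147 and 114 CPM in control libraries, close to a doubling (log2 fold change 1.01, SE 0.159, adjusted p = 0.00137). The mitochondrial trifunctional protein rose in both of its subunits by smaller amounts. Hadha had 511, 497, 475 and 450.0 CPM in diabetic and 356, 365, 362 and 347 CPM in control libraries (log2 fold change 0.44, SE 0.0943, adjusted p = 0.01199). Hadhb had 302, 274, 247 and 239 CPM in diabetic and 188, 184, 193 and 177 CPM in control libraries (log2 fold change 0.52, SE 0.0947, adjusted p = 0.00505; adjusted p = 0.251 after trend removal). The groups were narrow and apart for both subunits, and both calls held in all 8 reduced fits.

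Crat, which moves acetyl groups between carnitine and coenzyme A, rose by 0.42 on the log2 scale (adjusted p = 0.0125), a call lost without control library 4 (adjusted p = 0.0546). Eci2, Etfdh, Acadm and Eci1, which act in or pass electrons from beta-oxidation, rose by 0.57, 0.43, 0.38 and 0.37, and held in 6, 2, 1 and 0 of the 8 reduced fits. Angptl4, a secreted inhibitor of lipoprotein lipase, had 10.3, 11.6, 5.53 and 9.35 CPM in diabetic and 2.77, 4.26, 3.34 and 2.504 CPM in control libraries (log2 fold change 1.51, SE 0.436, adjusted p = 0.04202). Angptl4 lost its call without diabetic libraries 1, 2 or 4 or control libraries 1, 2, 3 or 4 (adjusted p from 0.0628 to 0.126). Lipe, hormone-sensitive lipase, had 27.2, 30.8, 29.6 and 25.1 CPM in diabetic and 17.9, 23.7, 20.1 and 14.5 CPM in control libraries (log2 fold change 0.56, SE 0.166, adjusted p = 0.0451). Lipe lost its call without diabetic libraries 1, 2, 3 or 4 or control libraries 1, 3 or 4 (adjusted p from 0.0655 to 0.152). Plin5, which coats lipid droplets next to mitochondria, had 29.98, 33.5, 25.3 and 23.1 CPM in diabetic and 18.9, 15.1, 15.9 and 9.29 CPM in control libraries, without overlap, but was not called (adjusted p = 0.117). Ucp3, an uncoupling protein of muscle mitochondria, had 137, 142, 147 and 259.9 CPM in diabetic and 46.02, 176, 257 and 59.97 CPM in control libraries. The groups overlapped, and no change was called (adjusted p = 0.728).

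Pdk4, the kinase that shuts off pyruvate dehydrogenase when fatty acids are burned, had 929, 804, 851 and 1184 CPM in diabetic and 111, 420.4, 446 and 197 CPM in control libraries (log2 fold change 1.68, SE 0.477, adjusted p = 0.0401). The groups did not overlap, but the control libraries fell into a low and a high pair, and the call was lost without diabetic libraries 1, 2, 3 or 4 or control libraries 1, 2 or 4 (adjusted p from 0.0542 to 0.126) and with the GC and length trend removed (adjusted p = 0.0631). It was the 1 gene called among 14 of the pyruvate dehydrogenase complex and its regulators. Pdk1, another kinase of the complex, had 53.7, 48.6, 47.98 and 50.6 CPM in diabetic and 48.2, 38.1, 38.03 and 36.4 CPM in control libraries (adjusted p = 0.1096).

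Of 27 genes of glucose uptake and glycogen handling, 2 rose and 1 fell, against 3.05% and 2.54% of all genes tested. The fall was Slc2a4, the insulin-responsive glucose transporter GLUT4, with 358, 388, 417 and 417 CPM in diabetic and 588, 670.2, 698 and 606 CPM in control libraries (log2 fold change -0.70, SE 0.152, adjusted p = 0.0122). All 4 diabetic libraries lay below all 4 control libraries, and the call held in all 8 reduced fits. Tbc1d4, the Rab GTPase-activating protein through which insulin releases GLUT4 to the surface, had 52.9, 51.2, 51.2 and 52.1 CPM in diabetic and 31.9, 33.5, 33.5 and 29.3 CPM in control libraries. The 2 groups were tight and far apart, yet the adjusted p was 0.0504, just short of a call (0.69 on the log2 scale). The 2 rises were regulators of the phosphatase that acts on glycogen enzymes. Ppp1r3a, which tethers that phosphatase to glycogen, averaged 169.5 ± 28.2 CPM in diabetic and 101 ± 29.8 CPM in control libraries (SD, n = 4 each; log2 fold change 0.75, SE 0.211, adjusted p = 0.0396), lost without diabetic libraries 1, 2, 3 or 4 or control libraries 2, 3 or 4 (adjusted p from 0.0568 to 0.128). Ppp1r1a, a phosphatase inhibitor, averaged 84.7 ± 14.4 CPM in diabetic and 51.97 ± 9.27 CPM in control libraries (log2 fold change 0.70, SE 0.189, adjusted p = 0.032). Ppp1r1a lost its call without diabetic libraries 1, 2 or 3 or control libraries 2, 3 or 4 (adjusted p from 0.0558 to 0.0998).

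None of the 20 glycolysis genes was called, although 9 of them were lower in all diabetic than in all control libraries, where 9.18% of all tested genes were, and the list's median was -0.24. Pgam2, the muscle phosphoglycerate mutase, had 1610.0, 1603, 1667 and 1710.0 CPM in diabetic and 2347, 2778, 3098 and 2816 CPM in control libraries (log2 fold change -0.74, adjusted p = 0.109). Eno3, the muscle enolase, averaged 6109 ± 310.2 CPM in diabetic and 9141 ± 907 CPM in control libraries (adjusted p = 0.136). At an unadjusted p under 0.05, 5 of the 20 would pass, and 2878 of all genes tested (22.1%). DESeq2 and limma called none of the list.

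Lipid synthesis and ketone use gave isolated calls. Scd1, stearoyl-CoA desaturase, which insulin induces, had 47.3, 18.7, 9.899 and 8.52 CPM in diabetic and 108, 102, 76.1 and 85.9 CPM in control libraries (log2 fold change -2.14, SE 0.515, adjusted p = 0.0196). Diabetic library 1 kept the most Scd1, and the call was lost without diabetic libraries 2, 3 or 4 or control library 4 (adjusted p from 0.0516 to 0.0792). Fads1, a fatty acid desaturase, fell by 0.81 on the log2 scale (adjusted p = 0.0246) and Scd2 by 1.03 (adjusted p = 0.0401); Fads1 was lost without diabetic libraries 2, 3 or 4 or control libraries 2 or 4 (adjusted p from 0.0529 to 0.0813), and Scd2 without any 1 of the 8 libraries (adjusted p from 0.0508 to 0.142). Against these 3 falls in a list of 26, Me1, malic enzyme 1, rose: it had 362, 371, 425 and 428 CPM in diabetic and 289, 256, 252 and 244 CPM in control libraries (log2 fold change 0.61, SE 0.114, adjusted p = 0.005399) and held in all reduced fits. Oxct1, which activates ketone bodies for oxidation, fell, with 166, 119, 126 and 146 CPM in diabetic and 258, 205, 218 and 207 CPM in control libraries (log2 fold change -0.67, SE 0.176, adjusted p = 0.0284); the groups did not overlap, and the call was lost without diabetic libraries 2, 3 or 4 or control libraries 1, 2, 3 or 4 (adjusted p from 0.0525 to 0.0872). Acat1, which acts next in the same pathway and also in isoleucine breakdown, rose by 0.48 (adjusted p = 0.0141). Acat1 lost its call without control library 4 (adjusted p = 0.0595).

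Some nuclear-encoded subunits of the respiratory chain and ATP synthase fell. Of 61 subunits, 19 fell, none rose and 42 were not called, against 2.54% of all genes that fell. The median log2 fold change was -0.37. Lower levels in all diabetic than in all control libraries were seen for 46 subunits, against 9.18% of all tested genes. With the GC and length trend removed 15 fell. The count depended on single libraries: it was 9, 6 and 5 without control library 2, 3 or 4, and 5, 4 and 4 without diabetic library 2, 3 or 4, and 16 or 17 without diabetic library 1 or control library 1. Atp5k, the small e subunit of ATP synthase, had 63.4, 49.9, 46.2 and 48.5 CPM in diabetic and 131, 108, 144 and 111 CPM in control libraries (log2 fold change -1.25, SE 0.189, adjusted p = 0.00113). Cox5b, a subunit of cytochrome c oxidase, had 327, 298, 305 and 321 CPM in diabetic and 489.8, 481, 568 and 493 CPM in control libraries (log2 fold change -0.70, SE 0.158, adjusted p = 0.0143). Cox8b, the muscle form of the smallest oxidase subunit, had 224, 196, 186 and 178 CPM in diabetic and 285, 313, 349 and 300.5 CPM in control libraries (log2 fold change -0.67, SE 0.116, adjusted p = 0.00363). Each was lower in every diabetic library than in any control library.

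Calls came from several complexes. Atp5g1, which encodes the rotating c ring of ATP synthase, averaged 415 ± 25.2 CPM in diabetic and 639 ± 59.9 CPM in control libraries (log2 fold change -0.62, SE 0.135, adjusted p = 0.0117), and with Atp5k, Cox5b and Cox8b it held in all 8 reduced fits. The other ATP synthase and oxidase subunits that fell were Atp5g3, Cox5a, Cox6b1, Cox7a1 and Cox7c, by 0.45 to 0.90 on the log2 scale. Cox7a1, the muscle form of a further oxidase subunit, had 146, 112, 107 and 129 CPM in diabetic and 229.6, 219.8, 257 and 214 CPM in control libraries, lost without diabetic libraries 2, 3 or 4 (adjusted p from 0.0503 to 0.0558). Complex I gave Ndufa1, Ndufa2, Ndufa3, Ndufa8, Ndufb2, Ndufb9, Ndufb10, Ndufc1 and Ndufs3, by 0.40 to 0.61, and complex III gave Uqcrh, by 0.48. Each of these subunits held in 1 to 5 of the 8 reduced fits. Among 20 citric acid cycle and shuttle genes the single fall was Got1, aspartate aminotransferase (-0.41, adjusted p = 0.0374), and the single rise was Idh2, mitochondrial isocitrate dehydrogenase, with 299, 284, 258 and 232 CPM in diabetic and 196, 211, 148 and 162 CPM in control libraries (log2 fold change 0.58, SE 0.1701, adjusted p = 0.0435). Got1 was lost without diabetic libraries 1, 2, 3 or 4 or control libraries 2, 3 or 4 (adjusted p from 0.0706 to 0.112), and Idh2 without diabetic libraries 1, 2, 3 or 4 or control libraries 2, 3 or 4 (adjusted p from 0.0529 to 0.127). Sirt1, a deacetylase that acts on PGC-1alpha, rose (log2 fold change 0.73, SE 0.209, adjusted p = 0.0412, at 4.14 ± 0.556 CPM in diabetic and 2.497 ± 0.401 CPM in control libraries). Its call was lost without diabetic libraries 1, 2, 3 or 4 or control libraries 2, 3 or 4 (adjusted p from 0.0551 to 0.131), and with the GC and length trend removed. Sirt1 was the only rise among 20 regulators of mitochondrial biogenesis. The only fall there was 2310042D19Rik (also named Perm1), a muscle regulator that acts with PGC-1, at 140.1 ± 15.1 CPM in diabetic and 213 ± 13.8 CPM in control libraries (log2 fold change -0.61, SE 0.159, adjusted p = 0.0293). It was lost without diabetic libraries 1, 2, 3 or 4 or control libraries 2, 3 or 4 (adjusted p from 0.0541 to 0.107).

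Insulin signalling genes changed at a few points. Pik3r1, the p85alpha regulatory subunit of phosphoinositide 3-kinase, had 29.6, 38.4, 23.1 and 38.1 CPM in diabetic and 13.97, 13.6, 13.2 and 10.3 CPM in control libraries (log2 fold change 1.34, SE 0.279, adjusted p = 0.00944). Foxo4, a FOXO factor that insulin signalling keeps out of the nucleus, had 225, 239, 213 and 214 CPM in diabetic and 172, 142, 134 and 135 CPM in control libraries (log2 fold change 0.61, SE 0.119, adjusted p = 0.006903). Grb14, an adaptor that inhibits the insulin receptor, fell, with 6.66, 5.41, 5.28 and 4.73 CPM in diabetic and 12.3, 13.6, 13.4 and 10.9 CPM in control libraries (log2 fold change -1.19, SE 0.2698, adjusted p = 0.0148). None of the 3 overlapped between groups; Pik3r1 and Foxo4 held in all reduced fits, and Grb14 was lost without diabetic library 4 (adjusted p = 0.06002). Rps6kb1, the ribosomal S6 kinase downstream of mTORC1, rose by 0.65 (adjusted p = 0.0335). Rps6kb1 lost its call without diabetic libraries 1, 2, 3 or 4 or control libraries 2, 3 or 4 (adjusted p from 0.0529 to 0.113). Foxo1 was scattered in both groups, at 23.2, 48.8, 55.9 and 90.9 CPM in diabetic and 15.3, 70.99, 35.3 and 14.97 CPM in control libraries (adjusted p = 0.332). In all, 3 of the 37 genes of this list rose and 1 fell, against 3.05% and 2.54% of all genes tested.

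Of 28 genes known to respond to glucocorticoids or FOXO, 6 rose, against 3.05% of all genes tested, and none fell. A positive log2 fold change was found for 27 of the 28, with a median of 0.55 over the list. The 6 that rose include Pik3r1, Pdk4 and Angptl4, counted above. Cebpb, a C/EBP transcription factor, had 55.6, 50.9, 48.6 and 68.3 CPM in diabetic and 22.8, 38.7, 26.6 and 12.4 CPM in control libraries (log2 fold change 1.15, SE 0.275, adjusted p = 0.0186). Cebpb lost its call without diabetic library 4 or control library 4 (adjusted p from 0.0707 to 0.0726). Cebpd, its relative, had 79.2, 53.99, 74.5 and 111 CPM in diabetic and 17.5, 40.5, 23.6 and 7.84 CPM in control libraries (log2 fold change 1.83, SE 0.495, adjusted p = 0.03299). Cebpd lost its call without diabetic libraries 1, 3 or 4 or control libraries 1, 3 or 4 (adjusted p from 0.0543 to 0.114). Klf9, a Krüppel-like factor and a direct glucocorticoid receptor target, had 131, 103, 95.4 and 129 CPM in diabetic and 94.7, 65.6, 57.99 and 49.3 CPM in control libraries (log2 fold change 0.77, SE 0.185, adjusted p = 0.019). Klf9 lost its call without diabetic libraries 1 or 4 or control libraries 2, 3 or 4 (adjusted p from 0.0525 to 0.0852). The list's count was 3 without control library 1, 2 or 3, 2 without diabetic library 1, 1 without control library 4 or diabetic library 4, and 4 in the other reduced fits. Fkbp5, a widely used glucocorticoid target, had 70.4, 91.4, 74.8 and 85.4 CPM in diabetic and 86.2, 65.7, 67.6 and 68.4 CPM in control libraries, and the groups overlapped (adjusted p = 0.847).

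The FOXO-regulated ubiquitin ligases that mark wasting muscle were not called. Fbxo32 had 286, 310.2, 528 and 432 CPM in diabetic and 124, 160.3, 156 and 214 CPM in control libraries. All 4 diabetic values were above all 4 control values, but the standard error was wide and the call was not made (log2 fold change 1.25, SE 0.551, 95% interval 0.12 to 2.38, adjusted p = 0.175). That standard error draws on the spread within all groups of the 24 libraries, not within these 8 libraries alone. Trim63 had 304, 339, 551 and 517 CPM in diabetic and 191, 307, 219 and 237 CPM in control libraries, with control library 2 above the lowest diabetic library (0.84, 95% interval -0.059 to 1.74, adjusted p = 0.262). Fbxo30, the ligase MUSA1, had 6.61, 4.34, 3.92 and 5.32 CPM in diabetic and 5.39, 1.97, 3.73 and 4.21 CPM in control libraries (adjusted p = 0.406). None of the 25 genes of the wasting list was called by edgeR, 7 had an unadjusted p under 0.05 (22.1% of all genes tested did), DESeq2 called 3 (Nedd4, Gadd45a and Ctsl) and limma 2 (Nedd4 and Cblb). Without control library 1 edgeR called 2, Nedd4 and Ctsl, and without control library 3 it called Cblb. Over all 25, 5 were higher in all diabetic than in all control libraries and 3 were lower, against 8.65% and 9.18% of all tested genes. Gadd45a, a stress-induced gene of denervated and wasting muscle, came closest, with a mean of 11.4 ± 1.64 CPM in diabetic and 5.17 ± 1.03 CPM in control libraries (SD, n = 4 each; log2 fold change 1.14, adjusted p = 0.05704); it was called, as the 1 member of the list, once the GC and length trend was removed.

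Of 107 other named genes 84 had a promoter window, and the 2 that held a motif were Trim63 and Klf9; they were picked for display after their values were seen. In the Trim63 window the glucocorticoid receptor pair starts 208 bases before the annotated gene start, and a FOXO motif on the opposite strand, reading TGTTTAC here, starts 194 bases before it. In the Klf9 window the FOXO motif GTAAACA starts 100 bases before the start. Motifs are in capitals, both windows are on the plus strand, and both come from RefSeq, GRCm38.p6.
Trim63, chr4:134314870-134315169: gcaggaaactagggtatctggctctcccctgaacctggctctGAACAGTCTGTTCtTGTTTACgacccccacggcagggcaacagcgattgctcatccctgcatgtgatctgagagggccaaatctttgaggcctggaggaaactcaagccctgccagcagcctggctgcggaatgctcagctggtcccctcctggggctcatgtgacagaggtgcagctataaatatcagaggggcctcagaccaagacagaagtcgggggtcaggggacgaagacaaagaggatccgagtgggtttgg
Klf9, chr19:23140976-23141275: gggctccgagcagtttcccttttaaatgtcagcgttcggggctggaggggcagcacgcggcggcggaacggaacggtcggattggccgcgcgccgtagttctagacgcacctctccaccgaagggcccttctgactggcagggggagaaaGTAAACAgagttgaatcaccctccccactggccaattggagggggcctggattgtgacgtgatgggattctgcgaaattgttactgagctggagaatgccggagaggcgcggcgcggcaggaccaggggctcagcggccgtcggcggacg

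Degradation machinery downstream of the ligases changed at few genes. Psmc6, an ATPase subunit of the proteasome cap, was the 1 call among 32 proteasome subunits, with 48.2, 46.9, 46.5 and 52.9 CPM in diabetic and 41.4, 25.3, 28.8 and 28.3 CPM in control libraries (log2 fold change 0.65, SE 0.186, adjusted p = 0.0405). Psmc6 lost its call without diabetic libraries 1, 2, 3 or 4 or control libraries 2, 3 or 4 (adjusted p from 0.0729 to 0.122) and once the GC and length trend was taken out (adjusted p = 0.168). Of 31 autophagy and lysosome genes, 3 rose, against 3.05% of all genes tested. Bnip3l, a mitophagy receptor, had 50.4, 50.98, 55.4 and 58.2 CPM in diabetic and 41.5, 34.5, 38.7 and 39.2 CPM in control libraries (log2 fold change 0.48, SE 0.119, adjusted p = 0.0227). Bnip3l lost its call without diabetic libraries 3 or 4 or control libraries 2, 3 or 4 (adjusted p from 0.0508 to 0.0813). Its relative Bnip3 averaged 282 ± 18.5 CPM in diabetic and 188 ± 14.9 CPM in control libraries (log2 fold change 0.58, SE 0.173, adjusted p = 0.0464). Bnip3 lost its call without diabetic libraries 1, 2, 3 or 4 or control libraries 2, 3 or 4 (adjusted p from 0.0682 to 0.131). Atg3, which conjugates LC3 to lipid, averaged 21.8 ± 1.57 CPM in diabetic and 16.9 ± 1.74 CPM in control libraries (log2 fold change 0.37, SE 0.102, adjusted p = 0.0354). Atg3 lost its call without diabetic libraries 1, 3 or 4 or control libraries 2, 3 or 4 (adjusted p from 0.05895 to 0.129). The groups did not overlap for these 3 genes, and 1 of the 3 was called with the GC and length trend removed.

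Many matrix genes fell. Of 39 extracellular matrix genes 18 fell and 1 rose, against 2.54% and 3.05% of all genes tested. The median log2 fold change was -0.68. Col1a1 and Col1a2, the chains of type I collagen, fell together. Col1a1 had 53.5, 36.8, 33.8 and 26.6 CPM in diabetic and 159, 133, 122 and 250.1 CPM in control libraries (log2 fold change -2.14, SE 0.4305, adjusted p = 0.00848). Col1a2 had 100.3, 72.4, 65.9 and 59.4 CPM in diabetic and 248, 234, 202 and 384 CPM in control libraries (log2 fold change -1.84, SE 0.362, adjusted p = 0.00705). Control library 4 was the highest and diabetic library 4 the lowest for both chains, and the groups were well apart.

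Serpinh1, the collagen chaperone HSP47, had 32.4, 34.1, 33.3 and 23.4 CPM in diabetic and 46.6, 60.8, 54.7 and 72.8 CPM in control libraries (log2 fold change -0.93, SE 0.186, adjusted p = 0.00807). Col5a3, a chain of type V collagen, had 5.79, 4.401, 2.59 and 2.29 CPM in diabetic and 16.1, 10.1, 9.52 and 41.3 CPM in control libraries (log2 fold change -2.35, SE 0.416, adjusted p = 0.00446). These 4 genes held in all 8 reduced fits. Basement membrane chains fell as well: Col4a1 had 74, 72.7, 71.9 and 59.1 CPM in diabetic and 129, 105, 100.3 and 249 CPM in control libraries (log2 fold change -1.07, SE 0.2399, adjusted p = 0.0143), lost without diabetic library 4 or control library 4 (adjusted p from 0.0578 to 0.0874). Its partner Col4a2 fell by 1.12 on the log2 scale, lost without control library 4 (adjusted p = 0.0511). Col6a1 had 50.2, 36.9, 37.9 and 36.4 CPM in diabetic and 83.7, 88.5, 75.8 and 126 CPM in control libraries (log2 fold change -1.21, SE 0.283, adjusted p = 0.0166), lost without diabetic libraries 2 or 4 or control library 4 (adjusted p from 0.0527 to 0.0793). Col3a1, of reticular fibres, had 79.2, 36.95, 38 and 28.01 CPM in diabetic and 140.0, 110.1, 129 and 256 CPM in control libraries (log2 fold change -1.80, SE 0.502, adjusted p = 0.0368), lost without diabetic libraries 2, 3 or 4 or control libraries 2, 3 or 4 (adjusted p from 0.0529 to 0.135). The single rise was Timp3, a matrix-bound inhibitor of metalloproteinases, with 101, 119.7, 108 and 113 CPM in diabetic and 94.05, 91.3, 67.1 and 61.6 CPM in control libraries (log2 fold change 0.49, SE 0.1396, adjusted p = 0.03998). It was not called with the trend removed (adjusted p = 0.0603) or without diabetic libraries 1, 2, 3 or 4 or control libraries 3 or 4 (adjusted p from 0.0583 to 0.149). The count of falls was 4 without control library 4, 5 without diabetic library 4, 10 without diabetic library 3 and 11 without diabetic library 2, and 15 to 18 in the other reduced fits. With the trend in GC content and length removed it was 17.

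A tendon and cartilage list of 15 genes had the largest share of calls: 9 fell, against 2.54% of all genes tested, and none rose. The median log2 fold change was -1.43. The count of falls was steadier here, at 7 to 9 in the 8 reduced fits and 9 with the trend removed. Thbs4, thrombospondin 4 of tendon matrix, had 30.2, 37.6, 33.5 and 34.1 CPM in diabetic and 66.2, 93.97, 92.2 and 69.5 CPM in control libraries (log2 fold change -1.25, SE 0.171, adjusted p = 0.00043). Chad, chondroadherin, a collagen-binding leucine-rich protein, had 4.48, 5.17, 5.43 and 6.38 CPM in diabetic and 22.5, 29.5, 19.5 and 21.5 CPM in control libraries (log2 fold change -2.12, SE 0.338, adjusted p = 0.00149). Tnmd, tenomodulin, a marker of mature tenocytes, had 1.46, 1.76, 1.17 and 1.797 CPM in diabetic and 6.96, 6.14, 5.09 and 7.49 CPM in control libraries (log2 fold change -2.05, SE 0.379, adjusted p = 0.00505). For all 3 genes the highest diabetic library was far below the lowest control library.

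Fmod, fibromodulin, which regulates collagen fibril width, had 48.4, 66.99, 50.96 and 59.4 CPM in diabetic and 162, 208, 130.4 and 164 CPM in control libraries (log2 fold change -1.56, SE 0.282, adjusted p = 0.00505). Cilp2, cartilage intermediate layer protein 2, had 1.96, 1.898, 1.58 and 1.23 CPM in diabetic and 10.6, 10.8, 5.81 and 11.04 CPM in control libraries (log2 fold change -2.51, SE 0.447, adjusted p = 0.00446). Comp, cartilage oligomeric matrix protein, had 4.35, 4.199, 3.29 and 4.46 CPM in diabetic and 11.8, 15.4, 7.65 and 9.14 CPM in control libraries (log2 fold change -1.44, SE 0.297, adjusted p = 0.00923). Col11a1, Kera and 1500015O10Rik were the remaining falls, the last at a mean of 0.262 CPM in diabetic and 1.01 CPM in control libraries. Kera was lost without diabetic libraries 1, 2, 3 or 4 or control libraries 2, 3 or 4 (adjusted p from 0.0559 to 0.0968), and 1500015O10Rik without diabetic libraries 2 or 4 or control library 4 (adjusted p from 0.0673 to 0.119). How much tendon was in each piece of muscle is not recorded in the labels, and its part in these differences was not tested.

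Few cell type markers outside the matrix were called. Fibroblast markers summed to 1213 to 1595 CPM in diabetic libraries and 893 to 1322 CPM in control libraries (exact permutation p = 0.114, adjusted 0.251). Most of that sum was Gsn, gelsolin, at 933 ± 134 CPM in diabetic and 684 ± 143 CPM in control libraries. Over the 14 fibroblast markers the median log2 fold change was -0.011, with 7 of them positive, and 1 was called: Col15a1, itself a collagen, averaged 12.5 ± 3.63 CPM in diabetic and 34.2 ± 16.99 CPM in control libraries (log2 fold change -1.45, SE 0.389, adjusted p = 0.0323). Col15a1 lost its call without diabetic libraries 2, 3 or 4 or control library 4 (adjusted p from 0.0751 to 0.154). Dcn, decorin, averaged 218 ± 13.6 CPM in diabetic and 173 ± 33.3 CPM in control libraries (adjusted p = 0.271), and its log2 fold change of 0.33 was -0.024 with the GC and length trend removed. Pericyte and smooth muscle markers gave 3 falls of 13, against 2.54% of all genes tested. Mcam (CD146) had 7.57, 8.12, 6.74 and 7.41 CPM in diabetic and 12.8, 13.6, 13.3 and 17.3 CPM in control libraries (log2 fold change -0.93, SE 0.172, adjusted p = 0.00505), and Cspg4 (NG2) had 5.003, 4.84, 3.92 and 3.35 CPM in diabetic and 9.27, 6.58, 6.61 and 11.1 CPM in control libraries (log2 fold change -0.97, SE 0.191, adjusted p = 0.00705). Both held in all reduced fits. Pdgfrb averaged 14.97 ± 1.89 CPM in diabetic and 22.9 ± 6.09 CPM in control libraries (log2 fold change -0.61, SE 0.169, adjusted p = 0.0354) and was lost without diabetic libraries 1, 2, 3 or 4 or control libraries 2 or 4 (adjusted p from 0.0541 to 0.173). Rgs5, another marker of pericytes, had 33.05 ± 1.57 CPM in diabetic and 18.6 ± 8.23 CPM in control libraries, the opposite direction, and was not called (adjusted p = 0.0655). Acta2 was listed at 0 in all 8 libraries.

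Macrophage, endothelial, satellite cell, Schwann cell, red blood cell, proliferation and lymphocyte lists had no called member under edgeR, with 0 to 3 members each at an unadjusted p under 0.05. Of all genes tested 22.1% had such a p. Tested members numbered 21, 22, 12, 10, 5, 4 and 1, in the order named. The red blood cell, proliferation and lymphocyte lists could therefore show little. DESeq2 called Mag, a Schwann cell gene, and limma none; edgeR called Cd163, a macrophage receptor, without diabetic library 3. Summed macrophage markers were at 127 to 167 CPM in diabetic libraries and 126 to 208 CPM in control libraries (exact permutation p = 0.686), and endothelial markers at 595 to 741 CPM and 601 to 863 CPM (exact permutation p = 0.286). Kdr, the main VEGF receptor of endothelium, had 14.9, 15.4, 15.7 and 12.3 CPM in diabetic and 27.2, 12.8, 14.8 and 47.7 CPM in control libraries, where control libraries 1 and 4 stood above the rest (adjusted p = 0.106). In the adipocyte list 1 of 11 tested genes was called, Lipe, given above; Car3 averaged 2270.0 ± 268 CPM in diabetic and 1418 ± 156 CPM in control libraries (adjusted p = 0.0807) and Fabp4 70.7 ± 7.33 CPM and 50.7 ± 11.8 CPM (adjusted p = 0.0825). Ly6g, Ucp1 and Bub1 were listed at 0 in all 8 libraries.

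Contractile and membrane genes of the fibre gave few calls. Of 16 fast fibre genes 1 rose and 1 fell, and of 16 slow and oxidative fibre genes 1 rose and 1 fell. Of 20 calcium release and triad genes 2 rose. Over all genes tested 3.05% rose and 2.54% fell. Levels of 8 fast fibre genes were lower in all diabetic than in all control libraries, where 9.18% of all tested genes were. Medians were -0.25 for the fast and 0.22 for the slow list. Myh1, the fast myosin of type IIx fibres, fell, with 3148, 2760.0, 2647 and 2420.0 CPM in diabetic and 4509, 4927, 4023 and 4400.0 CPM in control libraries (log2 fold change -0.70, SE 0.171, adjusted p = 0.0207). Myh1 lost its call without diabetic libraries 2, 3 or 4 or control libraries 2 or 4 (adjusted p from 0.0527 to 0.0801). Mb, myoglobin, had 986, 755, 854 and 815 CPM in diabetic and 1386, 1677, 1581 and 1406 CPM in control libraries (log2 fold change -0.83, SE 0.225, adjusted p = 0.0336). Mb lost its call without diabetic libraries 1, 2, 3 or 4 or control libraries 2, 3 or 4 (adjusted p from 0.0505 to 0.0954) and once the GC and length trend was taken out (adjusted p = 0.0565). Casq2, the cardiac and slow-fibre calsequestrin, rose by 0.82 (adjusted p = 0.0445). Casq2 lost its call without diabetic libraries 1, 2, 3 or 4 or control libraries 2, 3 or 4 (adjusted p from 0.0541 to 0.135). Removal of the GC and length trend also took away its call. Trdn, triadin, which anchors calsequestrin at the calcium release site, had 464, 279, 313 and 448 CPM in diabetic and 248, 77.9, 116 and 105 CPM in control libraries (log2 fold change 1.46, SE 0.366, adjusted p = 0.024); control library 1 was close to the diabetic range, and the call was lost without diabetic libraries 1 or 4 or control libraries 2, 3 or 4 (adjusted p from 0.0629 to 0.0897). Cacna2d1, a subunit of the voltage sensor complex at the same site, averaged 236 ± 33.98 CPM in diabetic and 138 ± 37.6 CPM in control libraries (log2 fold change 0.77, SE 0.198, adjusted p = 0.0253). Cacna2d1 lost its call without diabetic libraries 1 or 4 or control libraries 2, 3 or 4 (adjusted p from 0.0633 to 0.0928).

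Of 16 genes of polyamine and creatine metabolism 2 fell and none rose. Gamt, which makes creatine from guanidinoacetate, had 5.03, 3.69, 2.25 and 5.66 CPM in diabetic and 13.9, 13.3, 17.2 and 22.6 CPM in control libraries (log2 fold change -2.01, SE 0.416, adjusted p = 0.00923) and held in all reduced fits. Slc6a8, the creatine transporter, averaged 72.6 ± 11.7 CPM in diabetic and 102 ± 7.98 CPM in control libraries (log2 fold change -0.49, SE 0.126, adjusted p = 0.0253). Slc6a8 lost its call without diabetic libraries 2, 3 or 4 or control libraries 2 or 4 (adjusted p from 0.0525 to 0.107). Gatm, which acts before Gamt in creatine synthesis, had 1.52, 1.35, 1.04 and 1.01 CPM in diabetic and 1.73, 1.44, 0.9204 and 1.83 CPM in control libraries; the groups overlapped and it was not called (adjusted p = 0.6396).

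Among the clock genes, Rora, a nuclear receptor that activates Arntl, had 12.2, 12.3, 12.6 and 11.8 CPM in diabetic and 7.61, 4.26, 4.31 and 3.81 CPM in control libraries (log2 fold change 1.29, SE 0.266, adjusted p = 0.00923). It held in all reduced fits, and the diabetic libraries were close to each other. Tef, a PAR bZIP output factor, rose by 0.33 (adjusted p = 0.0445). Tef lost its call without diabetic libraries 1, 2, 3 or 4 or control libraries 2, 3 or 4 (adjusted p from 0.0605 to 0.142).

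Arntl and other rhythmic genes were not called, and the control libraries differed among themselves. Arntl had 1.87, 3.37, 5.39 and 1.67 CPM in diabetic and 4.16, 2.27, 3.73 and 22.03 CPM in control libraries, with control library 4 above all others (adjusted p = 0.243). Dbp had 154, 123, 106 and 113 CPM in diabetic and 168, 196, 176 and 39.8 CPM in control libraries, with control library 4 below all others. Per2 had 10.5, 11.1, 11.4 and 13.6 CPM in diabetic and 7.52, 15.2, 11.8 and 1.53 CPM in control libraries, again lowest in control library 4. These 3 genes are named because their values were seen to single out that library. The immediate early gene Egr1 did so as well, with 1.41, 1.82, 2.25 and 2.81 CPM in diabetic and 1.45, 1.71, 2.06 and 19.98 CPM in control libraries (adjusted p = 0.116). Time of day at dissection is not in the labels used here.

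The Notch pathway list had a median log2 fold change of -0.074. Of its 31 tested genes 1 fell: Nrarp, a target gene and feedback inhibitor of Notch, had 2.09, 2.18, 1.69 and 1.48 CPM in diabetic and 3.9, 1.97, 2.81 and 10.8 CPM in control libraries (log2 fold change -1.38, SE 0.355, adjusted p = 0.0257). Control library 4 carried much of that difference, and without it the log2 fold change was -0.63 (adjusted p = 0.207); the call was also lost without any 1 of the diabetic libraries (adjusted p from 0.0511 to 0.0887). Hes1, a canonical target, had 4.48, 4.48, 4.67 and 3.52 CPM in diabetic and 5.68, 4.64, 4.41 and 9.62 CPM in control libraries (adjusted p = 0.186). The receptors were not called: Notch1 had 3.65, 6.44, 5.21 and 3.57 CPM in diabetic and 6.52, 5.97, 4.53 and 6.38 CPM in control libraries, and Notch3, of vascular mural cells, had 16.6, 21.7, 21.99 and 12.8 CPM in diabetic and 23.8, 25.2, 15.7 and 31.5 CPM in control libraries. The values of both receptors overlapped between groups.

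The lists of chaperones, stress response, neuromuscular junction, branched-chain amino acid breakdown and immediate early genes had no called member under edgeR. At an unadjusted p under 0.05 they had 7 of 22, 10 of 27, 3 of 18, 2 of 20 and 4 of 19, against 22.1% of all genes tested. DESeq2 called Atf5 (stress response) and Gadd45a and Agrn (neuromuscular junction), and limma called Herpud1 (stress response) and Nr4a3 (immediate early). Leaving out a library brought in Agrn without control library 1 or 3, Egr1 without control library 1 and Nr4a3 without control library 2. Cytosolic ribosomal proteins had 1 of 46, Rpl38, which fell (log2 fold change -0.48, SE 0.137, adjusted p = 0.0405; adjusted p = 0.443 after trend removal). It was lost without diabetic libraries 1, 2, 3 or 4 or control libraries 2, 3 or 4 (adjusted p from 0.0759 to 0.129).

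**Figure D3:**
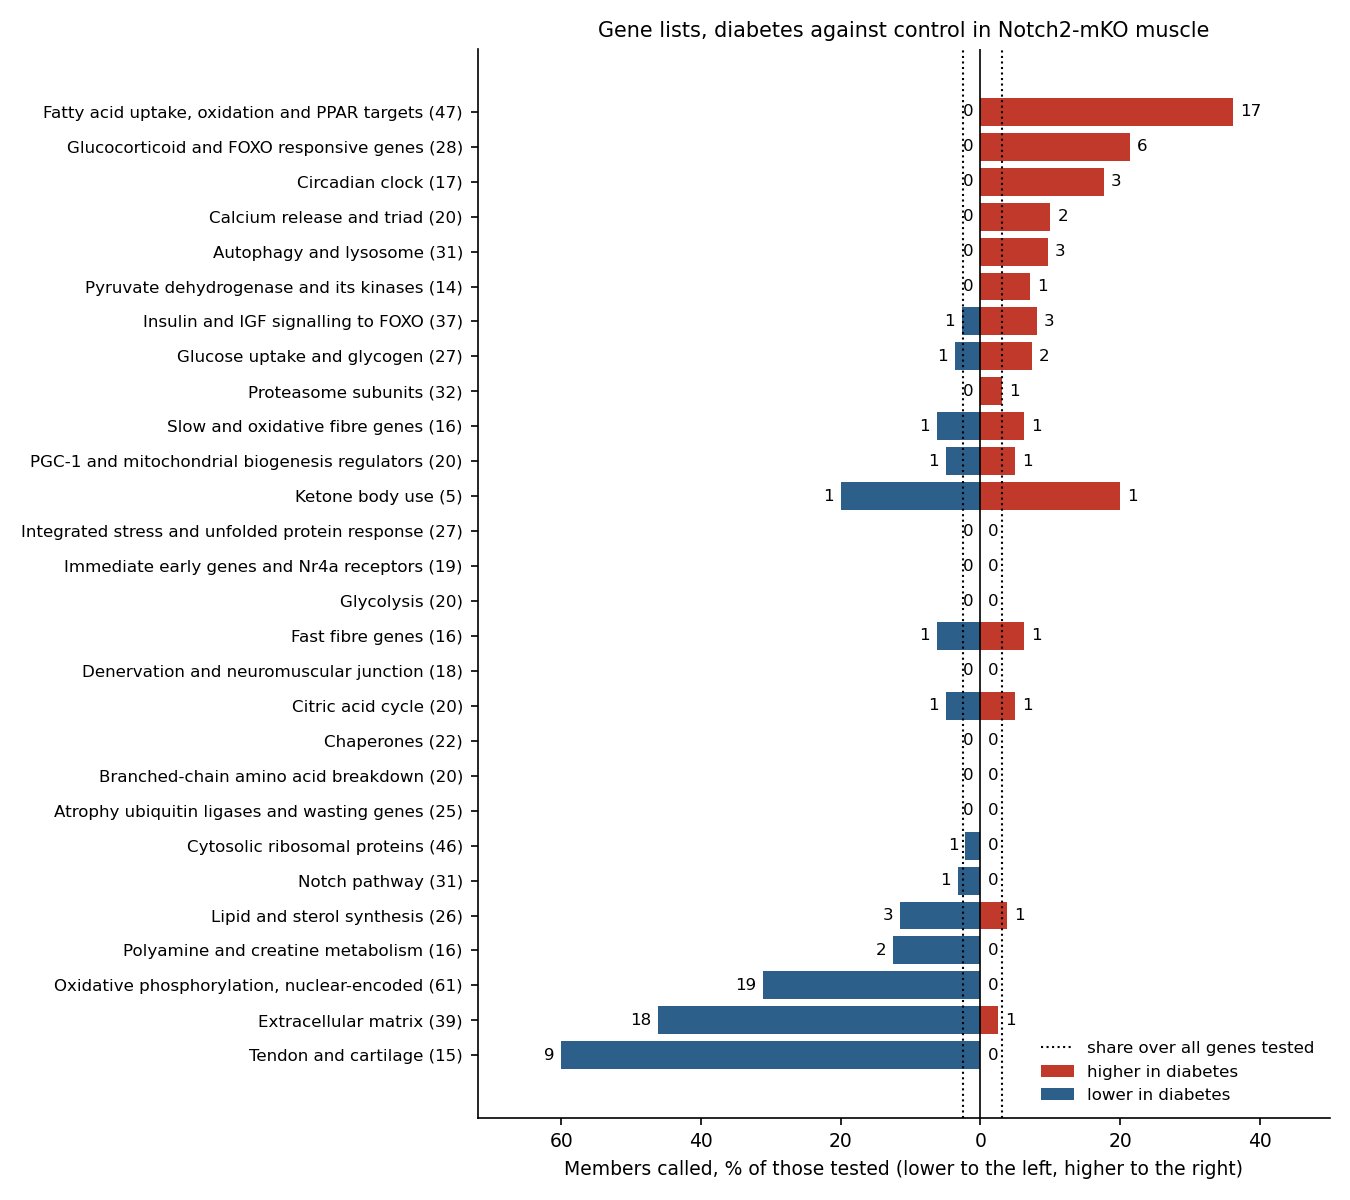
Share of each list's tested members called lower (blue, to the left) or higher (red, to the right) in diabetic than in control Notch2-mKO muscle, as a percentage, with the number called beside each bar, the number tested in brackets and dotted lines at the shares over all genes tested (2.54% and 3.05%). The fatty acid list reaches furthest to the right with 17 of 47, and the tendon, matrix and oxidative phosphorylation lists furthest to the left with 9 of 15, 18 of 39 and 19 of 61.

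The response was set beside that of WT muscle, which has its own diabetic and control libraries and shares none with Notch2-mKO. In WT muscle 4354 genes were called (33.4%), 2327 higher and 2027 lower. The base composition measure was further apart there, and its part in the counts of calls was not tested beyond removing the trend: AT-rich relative to GC-rich genes stood at 0.16 to 0.44 on the log2 scale in diabetic WT libraries and -0.81 to -0.15 in control WT libraries. With the GC and length trend removed 3315 genes were called in WT (25.4%), 1686 higher (12.9%) and 1629 lower (12.5%), and none for the difference between genotypes. Of the 730 genes called in Notch2-mKO, 665 were called in WT in the same direction, which is 91.1% of the Notch2-mKO list and 15.3% of the WT list, and 729 had the same sign. The difference between the genotypes was then tested itself. No gene was called (0%; smallest adjusted p = 0.414), while 1142 genes (8.75%) had an unadjusted p under 0.05; DESeq2 called 3 genes, lower in the Notch2-mKO response, and limma none. Without WT control library 4, edgeR called 2 genes with a higher and 60 with a lower response in Notch2-mKO. The median SE of this difference was 0.264 on the log2 scale, so differences well below a doubling were not detectable for most genes. Estimated differences of more than a doubling, such as those of Fbxo32 and Trdn below, were not called either.

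The intervals of the difference were wide for the genes of most interest. Fbxo32 averaged 389 ± 113 CPM in diabetic and 163 ± 37.5 CPM in control Notch2-mKO libraries, and 628 ± 410.3 CPM in diabetic and 112 ± 47.03 CPM in control WT libraries (SD, n = 4 each). Its log2 fold change was 1.25 in Notch2-mKO and 2.49 in WT (adjusted p = 0.00174 in WT), and the difference, Notch2-mKO minus WT, was -1.24 (95% interval -2.82 to 0.35, adjusted p = 0.664). For Trim63 the 2 log2 fold changes were 0.84 in Notch2-mKO and 1.63 in WT (difference -0.78, 95% interval -2.05 to 0.48, adjusted p = 0.743). These differences were not called, and the intervals include both no difference and a much weaker response in Notch2-mKO.

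Among the largest changes, 4 had a 95% interval of the difference that left out 0 before adjustment over all genes. For Trdn the log2 fold change was 1.46 in Notch2-mKO and 2.83 in WT (difference -1.37, 95% interval -2.42 to -0.32, adjusted p = 0.481). For Acot2 it was 2.13 in Notch2-mKO and 3.26 in WT (95% interval of the difference -2.07 to -0.19, adjusted p = 0.508). Cyp26b1 averaged 2.34 ± 1.01 CPM in diabetic and 8.65 ± 4.08 CPM in control Notch2-mKO libraries, against 2.97 ± 0.375 CPM in diabetic and 3.79 ± 2.13 CPM in control WT libraries (95% interval of the difference -2.89 to -0.19, adjusted p = 0.534). Rsc1a1 was near absent from 3 of the 4 diabetic WT libraries but not from the first, at 16.6, 0.663, 0.652 and 0.304 CPM, with 10.3, 12.9, 7.81 and 11.97 CPM in control WT libraries (95% interval of the difference -5.95 to -0.55, adjusted p = 0.506). None of the 4 passed the adjusted threshold. For Fabp3 the interval was narrow, and the log2 fold changes of 1.09 in Notch2-mKO and 1.03 in WT differed by 0.06 (95% interval -0.35 to 0.47).

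**Figure D4:**
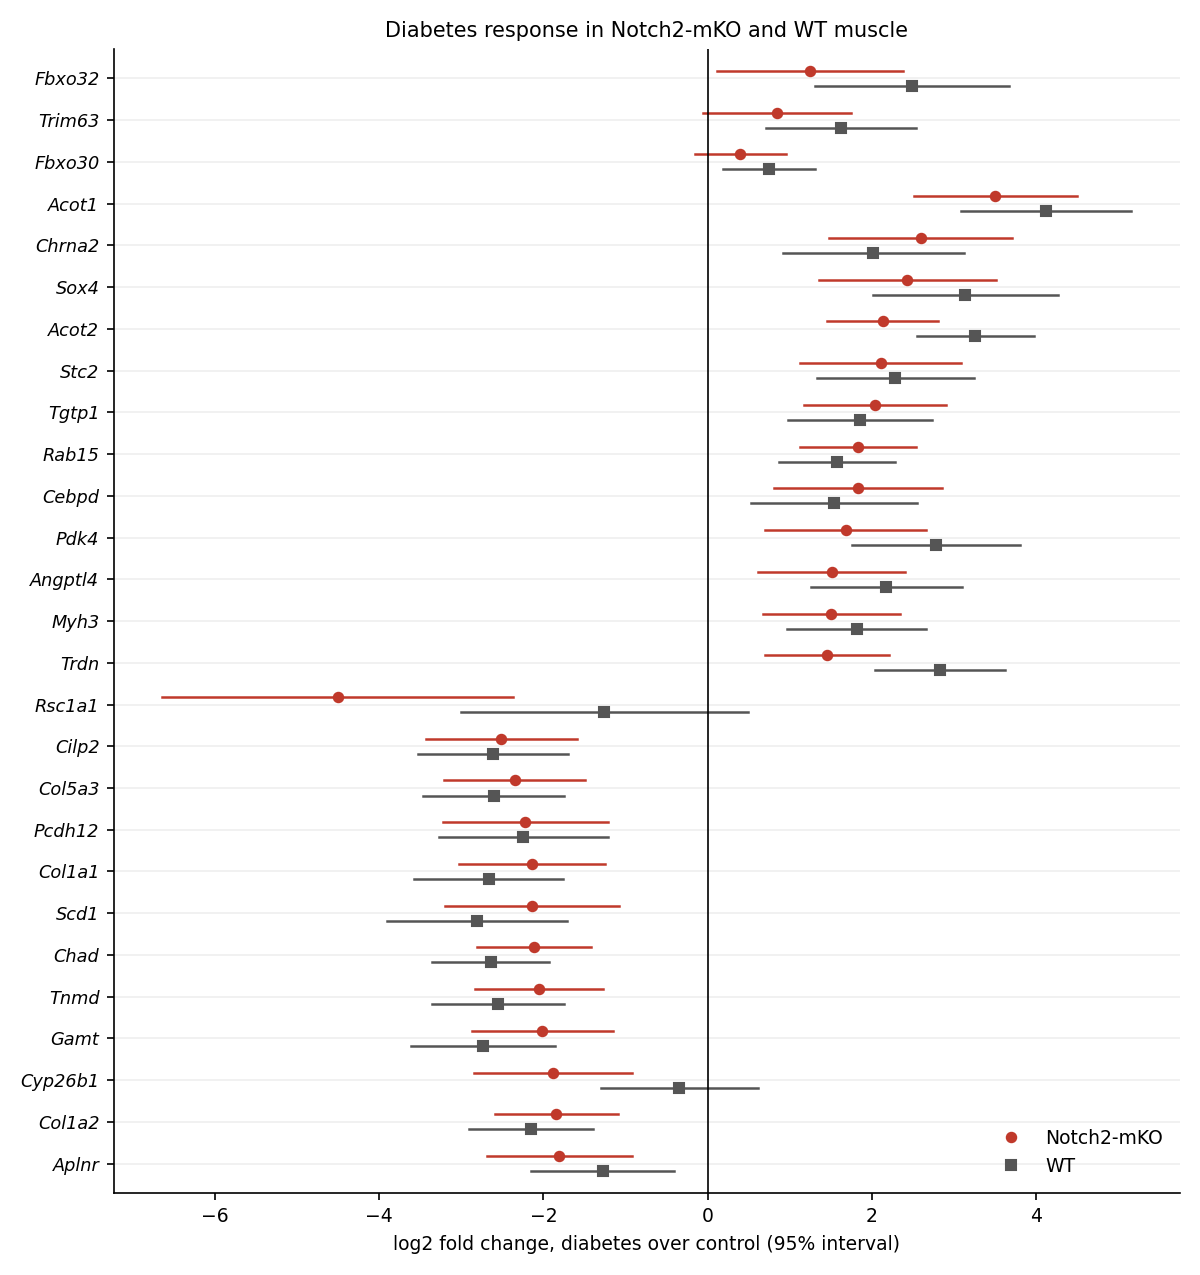
Log2 fold change of diabetes over control with its 95% interval in Notch2-mKO (red circles) and WT muscle (grey squares), for Fbxo32, Trim63, Fbxo30, the 12 largest rises and the 12 largest falls in Notch2-mKO. The points of the 2 genotypes lie on the same side of 0 for all genes shown, and the estimates lie furthest apart for Rsc1a1; the genes other than the first 3 were chosen by their change in Notch2-mKO.

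Diabetes was also compared directly with hindlimb unloading in the same genotype, without the shared controls. In diabetic muscle 254 genes were higher (1.95%) and 146 lower (1.12%) than in unloaded muscle, 3.07% of those tested. Fewer were lower when a library was left out: 75, 46, 63 and 66 without diabetic library 1, 2, 3 or 4, 93 and 92 without unloaded library 1 or 2, and 100 or 101 in the rest; the higher genes numbered 149 without diabetic library 2 and up to 241 otherwise. Fatty acid genes separated the treatments: 25 of 47 were higher in diabetic muscle, none lower, with a median log2 fold change of 0.58. Against control the median of this list was 0.38. Fabp3 had 811, 749, 657 and 538 CPM in diabetic and 149.9, 168, 175 and 201 CPM in unloaded libraries (log2 fold change 1.99, SE 0.146, adjusted p = 6.51e-09). Control libraries had 279, 338, 357 and 323 CPM of Fabp3, above all unloaded libraries, so its gap also took in a lower level in unloaded muscle. Pdk4 averaged 942 ± 169.5 CPM in diabetic and 182 ± 100.3 CPM in unloaded libraries (log2 fold change 2.37, SE 0.489, adjusted p = 0.00686), and Idh2 268 ± 29.5 CPM and 127 ± 30.99 CPM (log2 fold change 1.08, SE 0.172, adjusted p = 0.000794).

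Of the glucocorticoid and FOXO list 8 of 28 were higher in diabetic than in unloaded muscle, against 1.95% of all genes tested. None was lower, and the median was 0.73. Cebpb averaged 55.8 ± 8.801 CPM in diabetic and 22.3 ± 5.51 CPM in unloaded libraries (log2 fold change 1.32, SE 0.277, adjusted p = 0.007804). Ddit4, an inhibitor of mTORC1 that glucocorticoids induce, averaged 120.5 ± 34.97 CPM in diabetic and 11.03 ± 7.46 CPM in unloaded libraries (log2 fold change 3.45, SE 0.567, adjusted p = 0.00104). Against control the same gene had 87.5, 94.9, 139 and 160.1 CPM in diabetic and 54.6, 91.7, 27.3 and 8.64 CPM in control libraries, and was not called (adjusted p = 0.109). Tbc1d4 averaged 51.8 ± 0.835 CPM in diabetic and 22.6 ± 4.71 CPM in unloaded libraries (log2 fold change 1.199, SE 0.212, adjusted p = 0.00193).

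The largest differences between the 2 treatments also took in genes of activity and fibre type. Nr4a3, a nuclear receptor induced by exercise, averaged 6.53 ± 3.72 CPM in diabetic and 0.505 ± 0.354 CPM in unloaded libraries (log2 fold change 3.65, SE 0.6995, adjusted p = 0.003901). Slc25a25, a mitochondrial ATP-magnesium carrier, had 88.6, 69.6, 85.7 and 78.7 CPM in diabetic and 11.1, 8.59, 9.14 and 9.02 CPM in unloaded libraries (log2 fold change 3.09, SE 0.426, adjusted p = 0.000183), while control libraries had 105, 99.8, 66.4 and 12.3 CPM, with control library 4 near the unloaded range. Chrna2 averaged 4.77 ± 0.627 CPM in diabetic and 0.462 ± 0.362 CPM in unloaded libraries (log2 fold change 3.34, SE 0.572, adjusted p = 0.00157), Myh3 7.95 ± 3.51 CPM and 0.861 ± 0.178 CPM (log2 fold change 3.20, SE 0.449, adjusted p = 0.000209), and Fam107a, an actin-binding stress gene, 8.12 ± 1.91 CPM and 0.879 ± 0.702 CPM (log2 fold change 3.18, SE 0.641, adjusted p = 0.00554). Myh2, the myosin of type IIa fibres, was higher in diabetic than in unloaded muscle, with 2177, 2584, 2293 and 1962 CPM in diabetic and 1114, 1277, 985 and 535 CPM in unloaded libraries (log2 fold change 1.21, SE 0.209, adjusted p = 0.00177). In control libraries Myh2 had 2407, 3170, 2635 and 2894 CPM. Its log2 fold change of diabetes over control was -0.37 to -0.23 in the 8 reduced fits, never called. Myh1 was lower in diabetic than in unloaded muscle, at 2744 ± 304 CPM in diabetic and 5186 ± 556 CPM in unloaded libraries (log2 fold change -0.92, SE 0.172, adjusted p = 0.003303).

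On the lower side, Cacna2d4, a calcium channel subunit, averaged 0.8105 ± 0.2295 CPM in diabetic and 3.21 ± 1.46 CPM in unloaded libraries (log2 fold change -1.99, SE 0.487, adjusted p = 0.0231). Nr1d1, the clock repressor REV-ERBalpha, averaged 61.9 ± 14.4 CPM in diabetic and 181 ± 77.9 CPM in unloaded libraries (log2 fold change -1.54, SE 0.355, adjusted p = 0.0155). Panx1, which forms membrane channels, averaged 7.198 ± 0.776 CPM in diabetic and 19.3 ± 8.35 CPM in unloaded libraries (log2 fold change -1.42, SE 0.2595, adjusted p = 0.00271), and Aplnr 1.605 ± 0.142 CPM and 4.799 ± 0.766 CPM (log2 fold change -1.58, SE 0.428, adjusted p = 0.0427). Ppp1r15a (GADD34), a stress-induced phosphatase subunit, had 14.5, 12.5, 15.9 and 11.7 CPM in diabetic and 18.5, 29.2, 25.5 and 111 CPM in unloaded libraries (log2 fold change -1.75, SE 0.442, adjusted p = 0.0281); unloaded library 4 was far above the others. Trp53i11 averaged 1.11 ± 0.589 CPM in diabetic and 4.03 ± 1.796 CPM in unloaded libraries (log2 fold change -1.85, SE 0.519, adjusted p = 0.0489). Proteasome subunits gave 5 of 32 lower in diabetic than in unloaded muscle, against 1.12% of all genes tested, and none higher. Their median was -0.42, and the 5 lower ones were Psmb6, Psmb7, Psmc3, Psmd6 and Psmd12.

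Several gene groups that separated diabetic from control muscle gave no or few calls between diabetic and unloaded muscle. None of the 61 respiratory chain and ATP synthase subunits and none of the 15 tendon and cartilage genes was called; for Cox5b the mean was 313 ± 13.2 CPM in diabetic and 370.0 ± 74.3 CPM in unloaded libraries (adjusted p = 0.501), and for Thbs4 33.9 ± 3.02 CPM and 36.5 ± 9.98 CPM (adjusted p = 0.832). Col1a1 averaged 37.6 ± 11.4 CPM in diabetic and 52.8 ± 18.99 CPM in unloaded libraries (adjusted p = 0.637). Of the 39 matrix genes 1 was higher, Timp3, and 1 lower, Timp1. Timp1 was near the floor, at 0.087, 0.121, 0.180 and 0.049 CPM in diabetic libraries, where 3 counts equal 0.062 to 0.074 CPM. Fbxo32 had 150.5, 325, 190.1 and 1234 CPM in unloaded libraries, with unloaded library 4 far above the rest, and did not differ by the test from diabetic muscle (log2 fold change -0.29, adjusted p = 0.867). A p above the threshold does not show that the 2 treatments give equal levels.

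**Figure D5:**
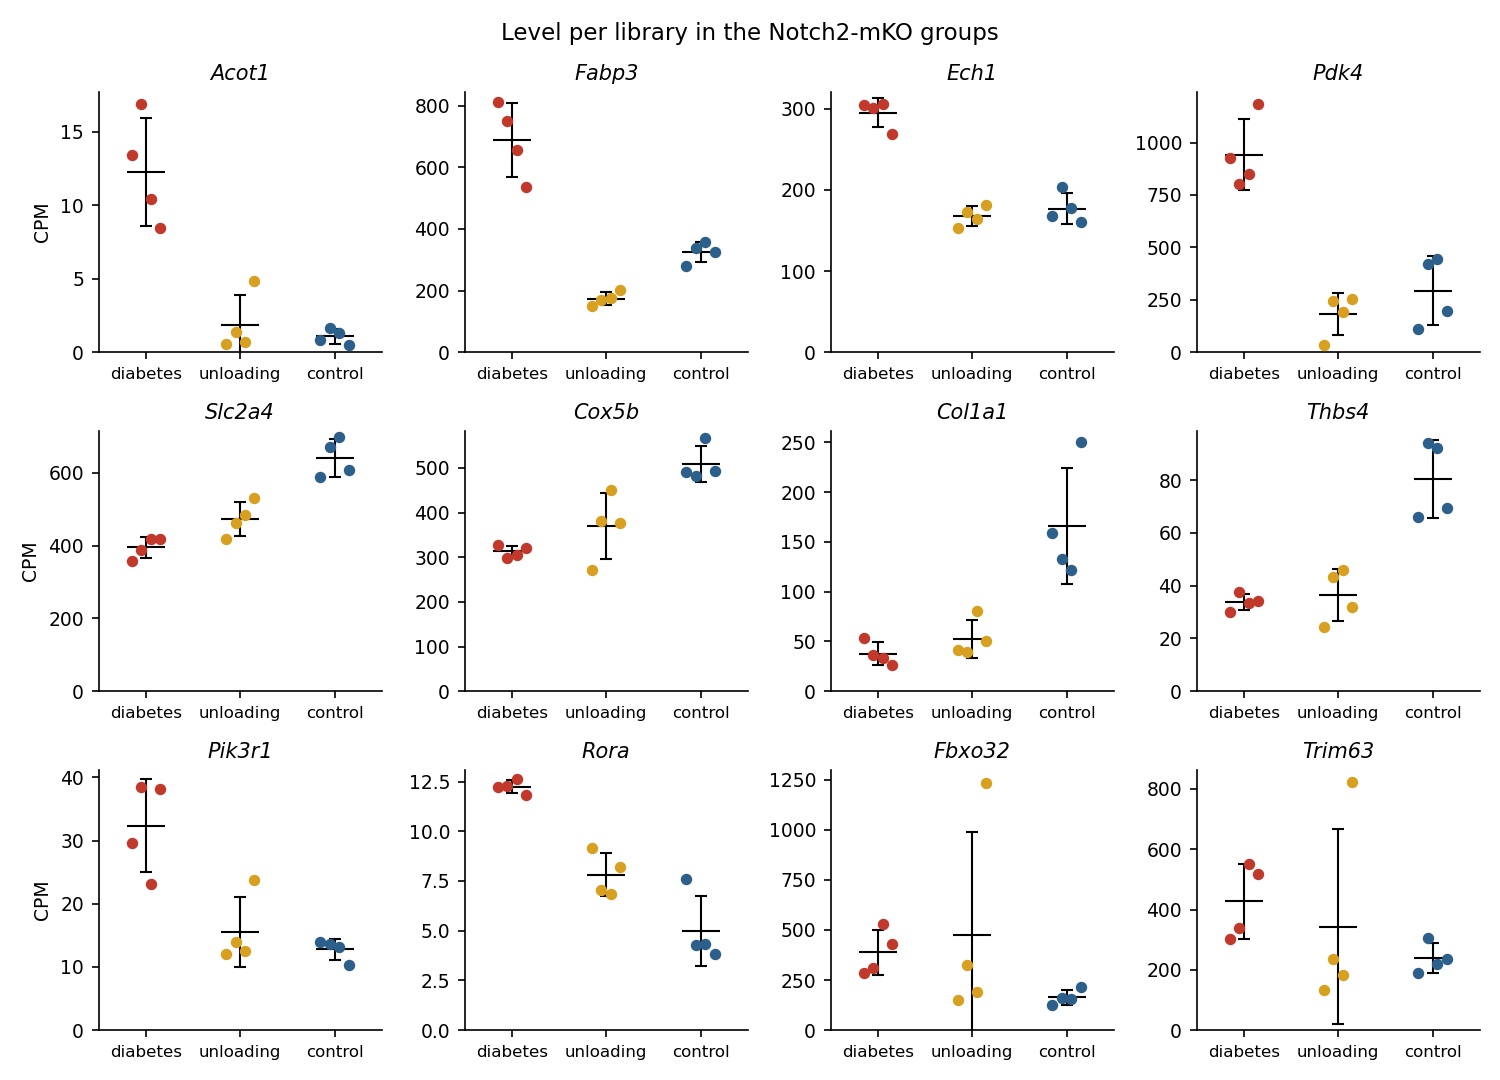
CPM per library in the 3 Notch2-mKO groups, in the order diabetes (red), unloading (yellow) and control (blue), for 12 genes; the long bar is the mean and the whiskers are 1 SD (n = 4 each; whiskers that would pass below 0 end at the axis). Acot1, Fabp3, Ech1 and Pdk4 are highest in diabetic libraries, Cox5b, Col1a1 and Thbs4 have their highest mean in control libraries, and unloaded library 4 stands far above the rest for Fbxo32 and Trim63.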

How the data were processed

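RNA of frozen gastrocnemius was extracted and sequenced, per the labels' protocols, and the build is mm10 per the submitters' processing notes. Which aligner and counter were run is not given in the sources used here. The deposited tables hold estimated counts per gene model (36172 models, 454 sharing a symbol, no mitochondrial genome) and log2 values that the authors computed from them. The 8 control columns are identical in both tables. Estimated counts were rounded and fitted with edgeR 4.0.16 (R 4.3.3) over all 24 libraries, with 1 coefficient per group, TMM scaling and filterByExpr, which left 13048 genes; calls are at a Benjamini-Hochberg adjusted p under 0.05. On simulated counts for diabetes against control in Notch2-mKO muscle (12920 genes) this test recovered 94% of genes changed by a log2 of 2 and 70% of those changed by 1, with 9 false calls. The simulated counts had no GC trend and no outlying library, so these shares need not carry over to the real libraries. Sums of markers and base composition were compared by exact permutation. DESeq2 1.42.0, limma 3.58.1 (on the authors' log2 values), other scalings, no filter, a GC and length trend (GC known for 96.8% of genes), a replicate block and leaving out each library were alternatives.

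The comparison, 28 gene lists and 11 marker lists (840 genes, 2 not matched) were chosen with earlier results of these data known. Genes named are Notch2, Fbxo32, Trim63 and Fbxo30; 12 rises and 12 falls, the largest by fold change where groups did not overlap and the mean was 2 CPM or more; the members of each list with the smallest p, at most 4; and up to 6 in each direction between diabetes and unloading. Further list members are named to complete a group, and Arntl, Dbp and Per2 were chosen after their values were seen. Gene positions and promoters are from RefSeq, GRCm38.p6, the same assembly as mm10. A result of the clock list is not reported here.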

Additional observations from a re-analysis of the deposited data

Results flagged for a closer look

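In 15 of 284 sets of 4 library values that were tested (5.28%), 1 library stood apart from the other 3 by more than Dixon's criterion allows; chance gives about 1 in 20. Among diabetic libraries, library 4 was low for Ech1 (269 CPM, others 301 to 305 CPM), Serpinh1 (23.4 CPM, others 32.4 to 34.1 CPM) and Jag2 (17.9 CPM, others 21.7 to 22.04 CPM). Diabetic library 1 was high for Pdha1 (439 CPM, others 383 to 391.5 CPM) and Ckmt2 (688 CPM, others 552 to 569 CPM). Among control libraries, library 4 was high for Egr1 (19.98 CPM, others 1.45 to 2.06 CPM), Aplnr (13.6 CPM, others 2.27 to 3.92 CPM) and Slc6a8 (113.9 CPM, others 97.3 to 100.1 CPM). Control library 1 was high for Pdk1 (48.3 CPM, others 36.4 to 38.1 CPM) and Rora (7.61 CPM, others 3.81 to 4.31 CPM). Control library 3 was high for Acot2 (3.15 CPM, others 2.21 to 2.30 CPM), Cox5b (568 CPM, others 481 to 493 CPM) and summed proliferation markers (18.6 CPM, others 16.5 to 16.8 CPM), and low for Cilp2 (5.81 CPM, others 10.6 to 11.04 CPM). Control library 2 was high for summed lymphocyte and neutrophil markers (4.11 CPM, others 0.436 to 0.851 CPM).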

How the results depend on the processing

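The counts of called genes were the values most sensitive to processing. Diabetes against control in Notch2-mKO muscle gave 398 genes higher and 332 lower; these numbers were 784 and 808 when only these 2 groups were fitted, 648 and 494 under DESeq2, 259 and 93 under limma (authors' log2 values), 411 and 326 with DESeq2's size factors in edgeR, 323 and 388 with upper quartile scaling, and 349 and 291 without a filter on low counts. Leaving out 1 library gave 77 to 633 higher and 76 to 362 lower. Replicate numbers did not pair the libraries (correlations of same-numbered deviations 0.202, 0.03, 0.0247 and -0.157); with the replicate number as a block the numbers were 297 and 182, and 216 and 166 when the GC and length trend was also taken out. The difference between genotypes stayed at 0 calls in most settings, with 3 lower under DESeq2 and 0 to 2 higher and 0 to 60 lower over the fits without 1 library. Diabetes against unloading gave 254 higher and 146 lower; 153 and 62 with limma, 84 lower with the block, 95 lower with the block and trend removal, 96 lower with only the 2 groups and 228 lower with DESeq2, and 149 to 241 higher and 46 to 101 lower over the fits without 1 library. The cause of these shifts was not tested, beyond the smaller number of samples in the reduced fits.

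Log2 fold changes turned sign for 5 genes that were not called with all libraries. Over the fits without 1 library Notch2 ranged from -0.22 to 0.12, being above 0 without control library 1 (0.0050), control library 4 (0.12) or diabetic library 3 (0.097). Leaving out control library 4 turned 3 others: Slc25a25 ranged from -0.16 without it to 0.45, Egr1 from -1.94 (a call, without control library 1) to 0.26 without it, and Ier2 from -1.04 to 0.060 without it. Dcn was at -0.024 with the trend removed and -0.012 with the block added. With 4 libraries a group and a typical SE of 0.186 on the log2 scale, small changes could not be detected.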
